A study of Carassius auratus with 10 samples.

Results

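The transcripts of the respiratory chain genes carried by mitochondrial DNA were followed in cultured goldfish (*Carassius auratus*) radial glial cells (RGCs). Members were the assembled transcripts (unigenes) whose gene name was *cytb*, *cox1*, *cox2*, *cox3*, *atp6*, *nd1*, *nd2*, *nd4* or *nd5*. This rule found 16 of 170956 unigenes with reads, namely 4 for *cytb*, 2 for *cox1*, 2 for *cox2*, 3 for *nd1*, 2 for *nd2*, 1 for *nd4* and 2 for *nd5*. No unigene was named *cox3* or *atp6*.

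The hypothalamus and telencephalon of adult females were the source of the RGCs, which had reached passage 3. By the labels, the control group held 4 untreated cultures. Which of them were pooled into the control values is not stated. Secretoneurin A, a peptide cut from secretogranin II, was given at 1000 nM for 24 h to the 3 cultures of the SNa group. The 3 cultures of the SKF group received SKF 38393, an agonist selective for dopamine D1 receptors, at 10 µM for the same time. Nothing in the labels says that a vehicle was given to the control cultures or that cultures came from separate fish. All cells had been grown in L-15 medium with fetal bovine serum, and poly(A) RNA was sequenced as read pairs. For the exposure, the paper states that the peptide was diluted in medium without serum. It does not name the medium of the control cultures for that time.

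The data hold 1 pooled value per group and unigene, and both comparisons use the same control pool. No difference below therefore has a replicate check, an SD or a test. Intervals are exact binomial (Clopper-Pearson) intervals at 95% on the pooled reads, with the mates of a pair counted as 1, and cover counting error only. The control pool held 147886694 reads, the SNa pool 64778968 and the SKF pool 86711702. Levels are given as reads per 1000000 reads of the pool (CPM), and differences as the log2 ratio of the values normalized with the authors' size factors.

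The mitochondrial genome of vertebrates encodes a small set of hydrophobic subunits at the core of complexes I, III, IV and V, whereas complex II is encoded wholly by the nucleus. The genes are transcribed inside the organelle as long RNAs that are cut and polyadenylated, so their messages enter poly(A) libraries. The remaining subunits are made from nuclear messages and imported, and the complexes pass electrons to oxygen and use the resulting proton gradient to make ATP.

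The members fell apart by how close they were to a known protein. For *cytb*, *cox1*, *cox2* and *nd1*, 1 unigene each matched a zebrafish protein from its first residue on, over 230 to 516 amino acids, with identities of 82.04% to 91.28%. The other 12 unigenes had identities of 31.13% to 50.78%. The 4 close unigenes held 6368903 of the 6369682 control reads of all members, and the 12 divergent ones held 779. Summed values per gene are therefore those of the close unigene, and the divergent unigenes are described apart.

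**Figure D1:**
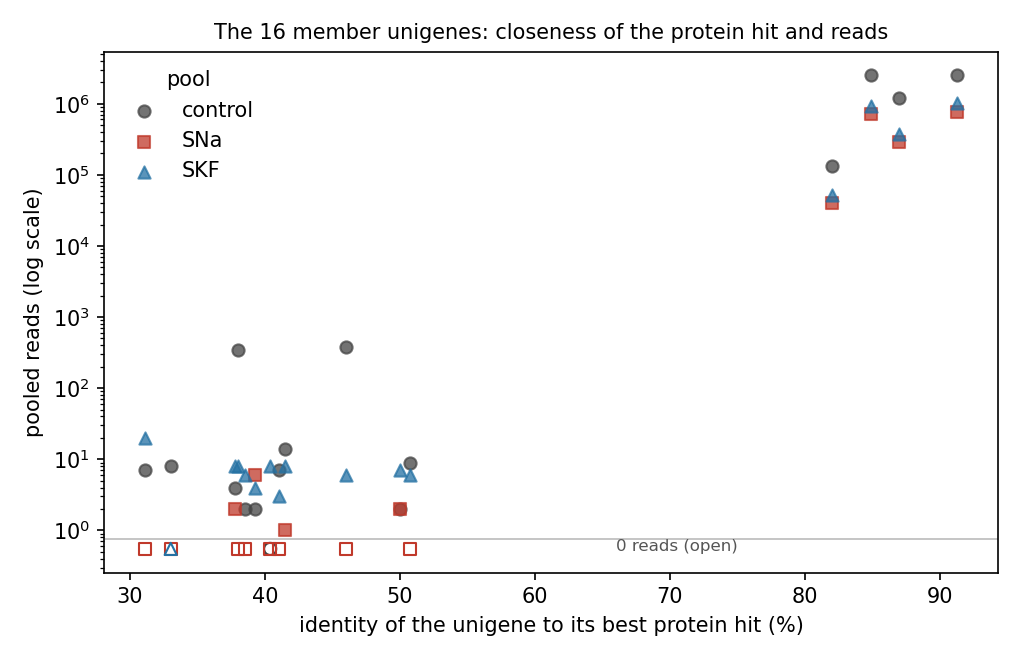
Pooled reads (log scale) of the 16 member unigenes against the percent identity of each to its best protein hit, with 1 symbol per pool and open symbols for 0 reads. The 4 unigenes with identities of 82.04% or more hold at least 39974 reads in each pool, and no divergent unigene lies above 377 reads.

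All 4 close unigenes were lower in both exposed pools than in the control pool, and *cox2* had the lowest ratio. Together the 16 members took 4.31% of the reads of the control pool, 2.77% of the SNa pool and 2.75% of the SKF pool. Against control, their summed log2 ratio was −0.65 in SNa, a fold of 0.638 (0.636 to 0.639), and −0.65 in SKF, a fold of 0.636 (0.634 to 0.637). In pooled cultures, fewer cells of a type and less RNA per cell cannot be told apart.

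*cox1* encodes the catalytic core of cytochrome c oxidase (complex IV), which holds the haem and copper centre where oxygen is reduced. Its close unigene (91.28% identity over 516 amino acids) had 2504511 reads in the control pool, 761158 in the SNa pool and 1024403 in the SKF pool. These are 16935, 11750 and 11814 CPM, so that the control pool was the high one and the exposed pools lay near each other. The log2 ratio to control was −0.54 (−0.54 to −0.53) in SNa and −0.53 (−0.53 to −0.52) in SKF.

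*cox2* encodes the subunit that takes electrons from cytochrome c through its copper centre. Its close unigene (86.96% identity, 230 amino acids) had 1212983 reads in control, 287157 in SNa and 376933 in SKF, or 8202, 4433 and 4347 CPM. By reads it was at rank 3 among all unigenes of the control pool, at rank 16 in SNa and at rank 17 in SKF. The log2 ratio was −0.90 (−0.91 to −0.89) in SNa and −0.92 (−0.93 to −0.92) in SKF, folds of 0.536 and 0.527.

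*cytb* encodes cytochrome b, the membrane subunit of complex III that oxidizes ubiquinol. Its close unigene (84.92% identity, 378 amino acids) was the most read unigene of the control pool with 2518146 reads, against 705380 in SNa and 932115 in SKF. The levels were 17028, 10889 and 10750 CPM. In both exposed pools the most read unigene was instead *col1a1a*, a collagen type I chain, with *cox1* at rank 2 and *cytb* at rank 3. The log2 ratio of *cytb* was −0.66 (−0.66 to −0.65) in SNa and −0.67 (−0.68 to −0.67) in SKF.

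*nd1* encodes a core membrane subunit of complex I at the entry of the quinone channel. Its close unigene (82.04% identity, 323 amino acids) had 133263 reads in control, 39974 in SNa and 52673 in SKF. At 901, 617 and 607 CPM it lay well under the other 3 in each pool, and its rank went from 112 in control to 169 in SNa and 171 in SKF. The log2 ratio was −0.56 (−0.58 to −0.54) in SNa and −0.58 (−0.60 to −0.56) in SKF.

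**Figure D2:**
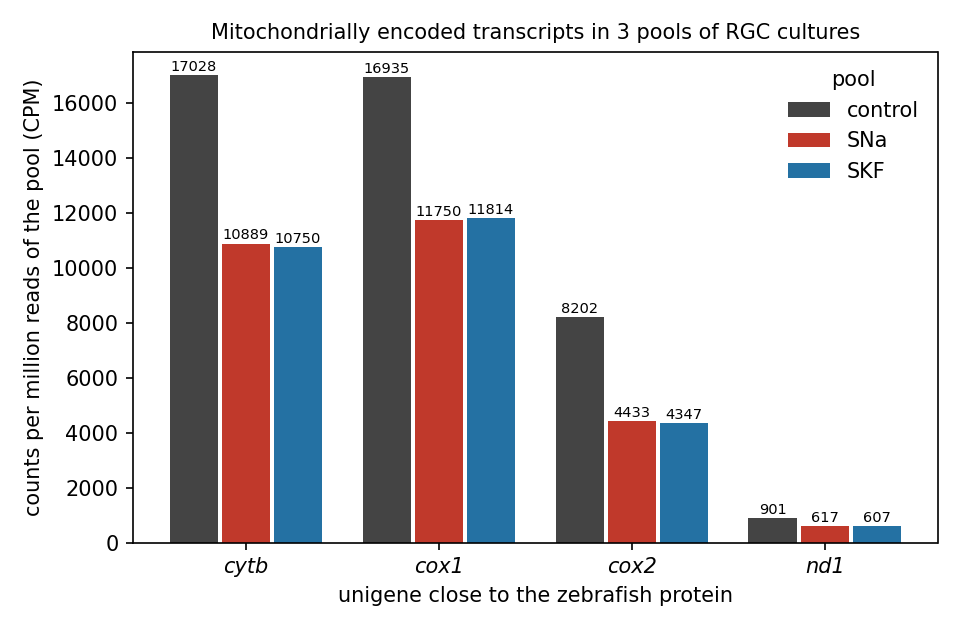
Level of the 4 close unigenes, in CPM, with 1 bar per pool. For each gene the control bar is the highest and the SNa and SKF bars are nearly level, for example 8202 against 4433 and 4347 for cox2.

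The order of levels between genes was read per length, from the first base of the unigene to the far edge of the protein hit. Full lengths were not used here. That edge was the end of the protein for *cox2*, but its start for *cytb*, *cox1* and *nd1*, whose hits lie in reverse. A longer unigene would lower these values and could change the order. Per kilobase, *cytb* had 14492 CPM in control, 9267 in SNa and 9149 in SKF, and *cox2* had 11536, 6235 and 6114. *cox1* had 10364, 7191 and 7230. In control *cox2* therefore stood above *cox1*, and in both exposed pools below it. *nd1* was lowest throughout, with 834, 571 and 562 CPM per kilobase.

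Ratios of reads within a pool do not depend on the size factors. Relative to *cox1*, *cytb* had 1.01 reads per read in control (1.00 to 1.01), 0.927 in SNa (0.922 to 0.931) and 0.910 in SKF (0.906 to 0.914). *cox2* had 0.484 (0.483 to 0.486), 0.377 (0.375 to 0.380) and 0.368 (0.366 to 0.370), which is 22.1% lower in SNa and 24.0% lower in SKF than in control. *nd1* had 0.0532 (0.0528 to 0.0536), 0.0525 (0.0518 to 0.0533) and 0.0514 (0.0508 to 0.0521). The 4 genes thus did not differ from control by the same factor. *nd1* kept its proportion to *cox1* within counting error in SNa and lay 3.37% under it in SKF, whereas *cox2* departed most.

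**Figure D3:**
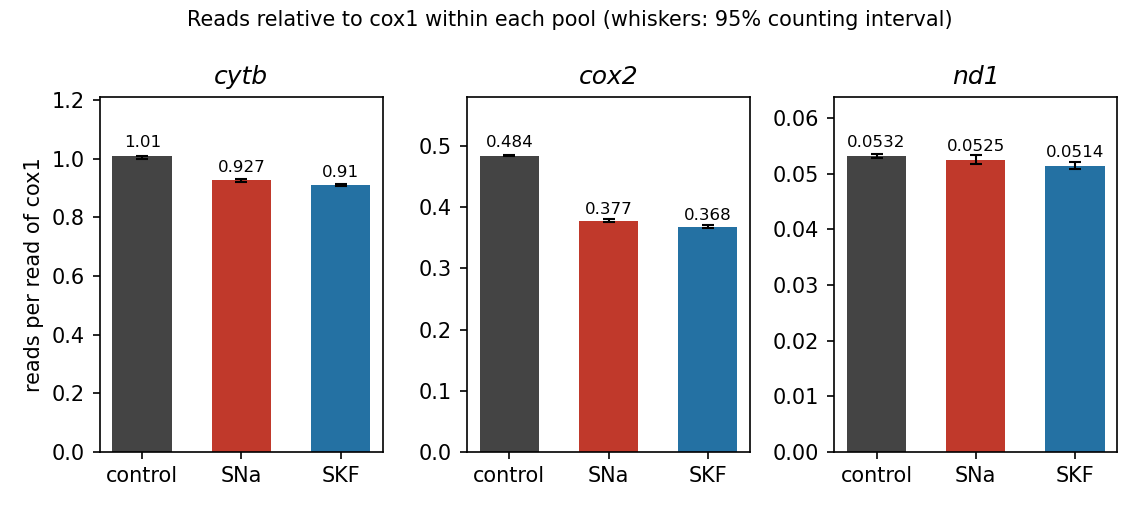
Reads of cytb, cox2 and nd1 per read of cox1 within each pool, with 95% counting intervals as whiskers and axes from 0. For cox2 the ratio is 0.484 in control, 0.377 in SNa and 0.368 in SKF, while for nd1 the SNa interval overlaps that of control.

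Called here means a log2 ratio past 0.5 in size at a mean normalized value of at least 10, with no test. In SNa 6 members reached this minimum and all 6 were lower, beside 25.1% of 100398 unigenes lower and 22.8% higher (47.9% in either direction). In SKF 8 reached it, of which 6 were lower and 1, an *nd2* unigene of 20 SKF reads, was higher, beside 26.4% of 106775 unigenes lower and 23.9% higher (50.3% in either direction). In SNa the divergent *cox1* and *cox2* unigenes passed only because of their control reads and had to differ. In SKF this held for the divergent *cox1* unigene, and the *nd2* unigene passed only because of its SKF reads, so these counts describe the members and support nothing. Scaled on the summed nuclear genes of oxidative phosphorylation in place of the size factors, 1 of the 4 close unigenes (*cox2*) stayed past the fold in SNa and 0 did in SKF. Among the 100 unigenes with the most control reads, 11 were lower and 18 higher in SNa, and 16 lower and 11 higher in SKF. The close *cytb*, *cox1* and *cox2* unigenes are among these 100 and are counted as lower in both comparisons. Ranking by control reads also favours unigenes that are high in control. The median log2 of these 100 was −0.09 in SNa and −0.14 in SKF.

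Set among gene symbols, each summed over its unigenes, the 4 genes lay in the lower part of both distributions. The median log2 over 15896 symbols was 0.01 in SNa (quartiles −0.30 and 0.29) and over 16075 symbols 0.04 in SKF (quartiles −0.29 and 0.36). In SNa a log2 ratio lower than that of *cox2* was found for 6.66% of symbols, lower than *cytb* for 10.2%, lower than *nd1* for 12.4% and lower than *cox1* for 13.2%. In SKF the shares were 5.93% for *cox2*, 9.56% for *cytb*, 11.9% for *nd1* and 13.6% for *cox1*. *cox2* thus lay furthest out and *cox1* least far.

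**Figure D4:**
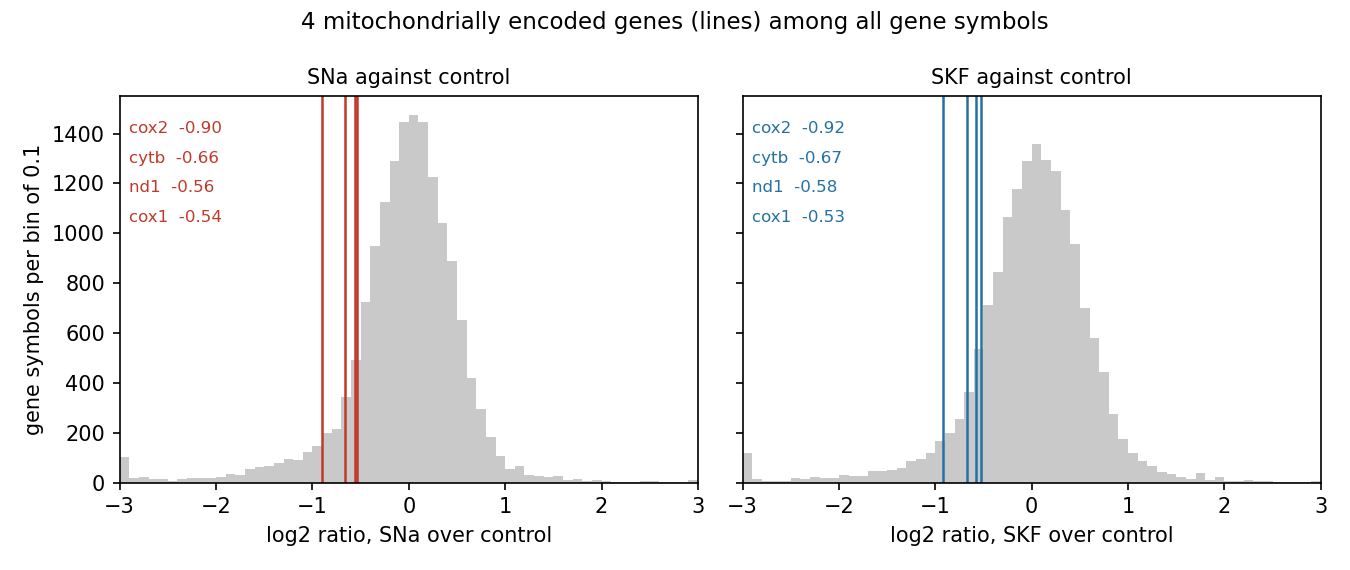
Number of gene symbols per bin of 0.1 in the log2 ratio to control, for SNa and SKF, with the 4 close genes as vertical lines and values beyond −3 or 3 placed in the outer bins. The lines lie left of the bulk of both distributions, at −0.90 to −0.54 in SNa and −0.92 to −0.53 in SKF.

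SNa and SKF share their control, so their ratios are given side by side and the pools were also set against each other directly. On the CPM scale the log2 ratio of SNa over SKF was 0.019 for *cytb* (0.012 to 0.025), −0.008 for *cox1* (−0.014 to −0.002), 0.028 for *cox2* (0.018 to 0.038) and 0.022 for *nd1* (−0.004 to 0.049). Over 15725 gene symbols the median size of this log2 ratio was 0.12. For each of the 4 genes the exposed pools differed by less than that. This median takes in symbols with far fewer reads and larger counting error, so it is not a background matched in abundance. With 1 pool per exposure no statement on a difference between SNa and SKF can be tested.

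The nuclear partners of these subunits were also lower on balance, with 76 of 80 symbols of complexes I to V below 0 in each comparison. Of the 80, 29 were lower than control past the fold in SNa and 0 higher, with a median log2 of −0.42. In SKF 42 were lower and 0 higher, with a median of −0.51. Over all symbols 14.5% were lower and 12.4% higher in SNa (26.9% in either direction), and 14.6% lower and 16.7% higher in SKF (31.3%). The summed level of the 80 was 6873 CPM in control, 5265 in SNa and 5045 in SKF. No test of the list was run.

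In complex IV, 7 of 16 nuclear symbols were lower in SNa and 9 in SKF, beside 14.5% and 14.6% of all symbols. The medians of the 16 were −0.43 and −0.52. *cox7b*, a small structural subunit, was the lowest at −0.79 (13343 control reads, 3399 in SNa) and −0.86 (4332 reads in SKF). *cox2* was thus lower than each of its 16 nuclear partners in both comparisons, whereas *cox1* lay amid them, with 6 partners below it in SNa and 8 in SKF. In SKF the counting interval of *cox7b* (−0.93 to −0.79) overlapped that of *cox2* (−0.93 to −0.92). *ndufa4l*, related to a subunit of complex IV, had log2 ratios of −0.67 and −0.77, and *cox4i1*, which takes part in its regulation by ATP, −0.43 and −0.54. *cox6a1*, a further regulatory subunit, had −0.22 and −0.32. Above 0 were *cox6b1*, at 0.18 (0.01 to 0.35) in SNa and 0.35 (0.20 to 0.50) in SKF, and *cox7a1*, whose intervals of −0.07 to 0.79 and −0.07 to 0.72 include 0.

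In complex III, 1 of 9 nuclear symbols was lower in SNa and 3 in SKF, beside 14.5% and 14.6% of all symbols. The medians of the 9 were −0.28 and −0.29, and no gene for cytochrome c itself was among them. *cytb* lay below all 9 in SNa and below 8 in SKF. The lowest partners were *uqcrq* in SNa at −0.53 and *uqcr11* in SKF at −0.77 (−1.02 to −0.52), both small subunits. *uqcrb*, a small subunit near the ubiquinone site, had −0.50 and −0.56. The Rieske iron-sulfur protein gene *uqcrfs1* had −0.27 and −0.28, and the core protein gene *uqcrc1* −0.16 and −0.14. *uqcrc2b*, for the other core protein, lay at 0.09 and 0.05.

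In complex I, 14 of 37 nuclear symbols were lower in SNa and 22 in SKF, beside 14.5% and 14.6% of all symbols, and none was higher. The medians of the 37 were −0.42 and −0.52. *nd1* was lower than 30 of the 37 in SNa and 27 in SKF. The lowest partners were the accessory subunits *ndufa13* in SNa at −0.67 and *ndufa3* in SKF at −0.78. Core subunits that carry flavin or iron-sulfur centres were spread over this range. *ndufv1* at 0 and 0.03, *ndufs1* at −0.04 and −0.05 and *ndufs8a* at −0.03 and −0.09 stood at the other end. *ndufv2* had −0.28 and −0.33, *ndufs7* −0.47 and −0.54, and *ndufs8b*, on 140 control reads, −0.63 and −0.51. The accessory subunit *ndufa8* had −0.32 and −0.45.

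Complexes II and V had no close mitochondrially encoded member to set beside them. In ATP synthase (complex V), 5 of 14 nuclear symbols were lower in SNa and 7 in SKF, beside 14.5% and 14.6% of all symbols. The medians of the 14 were −0.42 and −0.51. The genes *atp5b* (−0.18 and −0.24) and *atp5a1* (−0.12 and −0.11), for subunits of the catalytic part, were the nearest to control of the 14. Also of that part, *atp5c1* (−0.38 and −0.41) and *atp5d* (−0.44 and −0.53) lay lower. *atp5o* of the stalk was at −0.50 and −0.58, and *atp5ia* was lowest (−0.71 and −0.81). In complex II, the iron-sulfur subunit *sdhb* had −0.17 and −0.16, and the membrane anchors *sdhc* and *sdhdb* had −0.53 and −0.59, and −0.07 and −0.14. The lowest point of this complex in SNa was *sdha* at −2.31, which rests on 45 reads in control and 4 in SNa. In SKF it had 26 reads and a log2 ratio of −0.03.

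**Figure D5:**
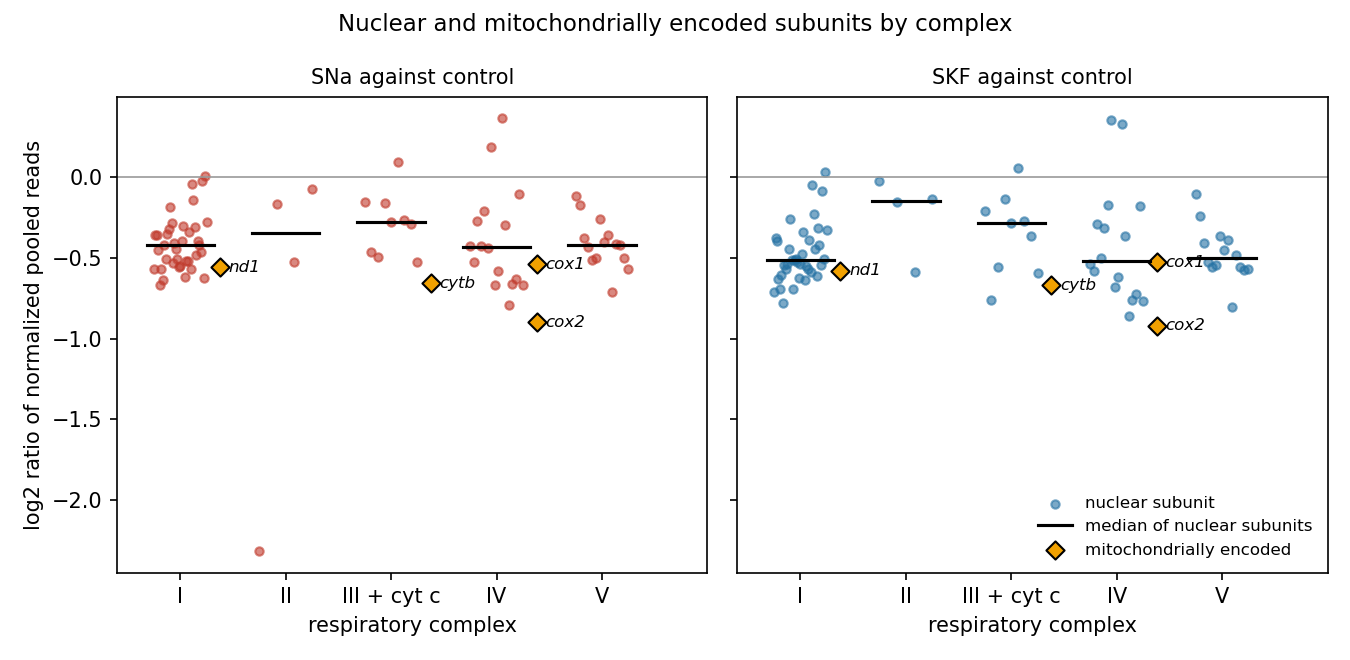
Log2 ratio to control of the nuclear subunits of each respiratory complex (circles, with the median as a bar) and of the 4 mitochondrially encoded genes (diamonds), for SNa and SKF. The cox2 diamond, at −0.90 and −0.92, lies below the 16 nuclear circles of complex IV, and the cytb diamond below the median of complex III.

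By their list medians, genes listed for mitochondrial DNA and RNA lay closer to control than the 4 close members, though some single genes did not. The first list also holds regulators of nuclear genes, among them *esrra*, *gabpa* and *nrf1*. Its median is therefore not that of genes acting on mitochondrial DNA alone. Of 14 symbols for maintenance and transcription of mitochondrial DNA, 2 were lower and 0 higher in SNa (median −0.13), and 3 lower and 1 higher in SKF (median −0.21), beside the 14.5% and 14.6% of all symbols that were lower. *ssbp1*, which coats single-stranded mitochondrial DNA, had −0.55 and −0.60, and *mterf3*, a repressor of mitochondrial transcription in mammals, −0.53 and −0.67. *tfam* had −0.455 and −0.531. The nuclear receptor gene *esrra*, an activator of respiratory genes in mammals, was at 0.01 (−0.09 to 0.10) in SNa and 0.68 (0.61 to 0.76) in SKF. The transcription factors *gabpa* (−0.13 and −0.17) and *nrf1* (−0.27 and −0.26), which act on nuclear respiratory genes in mammals, and *mterf2* (0.13 and −0.27) lay nearer to 0.

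Of 18 symbols for mitochondrial RNA processing and translation, 0 were lower in either comparison and 1, *fastk*, was higher in both (0.50 and 0.57). In SNa *fastk* lay right at the cut, with a counting interval of 0.35 to 0.65. Over all symbols 14.5% were lower and 12.4% higher in SNa, and 14.6% lower and 16.7% higher in SKF. The medians of the 18 were −0.11 and −0.17. The partners *lrpprc* and *slirp*, which together stabilize mitochondrial messages in mammals, differed, with *lrpprc* at 0.02 and −0.07 and *slirp* at −0.43 and −0.43. The elongation factor *tufm* had −0.14 and −0.20, the tRNA-end nuclease *elac2* −0.13 and −0.15, and the initiation factor *mtif3* −0.38 and −0.46.

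Of 25 assembly factors 4 were lower in SNa and 6 in SKF, and 0 were higher (medians −0.30 and −0.33), again beside 14.5% and 14.6% of all symbols lower. *uqcc2*, an assembly factor of complex III and of cytochrome b, had −0.49 and −0.64, and *cox20*, which acts on the product of *cox2* in mammals, −0.58 and −0.89. The complex I factors differed among themselves, with *ndufaf4* at −0.94 (348 control reads) and −0.77, *ndufaf3* at 0.02 and 0.22 and *acad9* at 0.18 and 0.19. *surf1*, a complex IV factor and the most read of the list, had −0.14 and −0.21. It held 220415 control reads, or 1490 of the 1728 CPM of the list in control. Whether the 2 unigenes of this name hold only *surf1* was not checked.

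Of 22 other genes taken as a gauge of mitochondrial abundance, 4 were lower in each comparison and 0 higher, with medians of −0.20 and −0.19 and the same shares of all symbols as background. The adenine nucleotide carrier *slc25a5*, the most read of them, was at −0.23 and −0.28, the phosphate carrier *slc25a3b* at −0.16 and −0.18, and the outer membrane channel *vdac2* at −0.11 and −0.12. *vdac3* (−0.79 and −0.65) was lowest in SNa and the mitochondrial peroxidase *prdx3* (−0.58 and −0.71) was lowest in SKF. The matrix chaperone *hspa9* was highest in both (0.43 and 0.36).

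Other genes had log2 ratios near those of the members. Likeness was the distance in the plane of the SNa and SKF log2 ratios, over 3 pools and 7042 symbols with a mean normalized value of at least 1000. Nearest to *cytb* were *txn2*, *nhp2*, *cox6b2*, *celsr2* and *crp2*, and nearest to *cox1* were *prdx2*, *eno1b*, *gpx4b*, *zcchc10* and *cirbpa*. Within a distance of 0.05 there were 32 symbols for *cytb*, 47 for *cox1*, 56 for *nd1* and 2 for *cox2*. Nearest to *nd1* were *emc6*, *coro2ba*, *ptprfa*, *rpl38* and *surf2*, and nearest to *cox2* were *chrac1*, *polr2l*, *cyhr1*, *tox3* and *pomp*. Fewer of the 7042 symbols thus lay near the pair of ratios of *cox2* than near those of the other 3. *cox2* lay further out in both distributions, where symbols are fewer. The symbols nearest to it were far less abundant, with *pomp* the most read of them at 14569 control reads against 1212983 for the close *cox2* unigene.

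The 12 divergent unigenes held few reads, at 0 to 377 in control, 0 to 6 in SNa and 0 to 20 in SKF. Of them 10 had at most 15 control reads, and 8 had 0 reads in SNa, which allows up to 3 read pairs or 0.0926 CPM each. The protein hit was from zebrafish for 9 of the 12. The divergent *cox1* unigene (46.03% identity over 517 amino acids) had 377 reads in control, 0 in SNa and 6 in SKF. The counting interval of its fold reached up to 0.0448 in SNa, and in SKF the fold was 0.027 (0.00552 to 0.0801). The divergent *cox2* unigene (38% over 200 amino acids) had 347, 0 and 8 reads, with an interval of the fold up to 0.0487 in SNa and a fold of 0.0391 in SKF (0.0105 to 0.102). In both, nearly all reads came from the control pool. The close unigenes of the same names had identities of 91.28% and 86.96%. The divergent *cox1* and *cox2* unigenes therefore cannot be taken as goldfish copies of those genes, and their origin was not tested.

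The remaining divergent unigenes held at most 20 reads in any pool. The 2 divergent *nd1* unigenes had 14 and 7 reads in control, 1 and 0 in SNa and 8 and 3 in SKF. The 3 divergent *cytb* unigenes had 2 to 4 reads in control, 2 to 6 in SNa and 4 to 8 in SKF. Of the *nd2* unigenes 1 had 7, 0 and 20 reads, with a log2 ratio of 2.28 (0.41 to 4.56) in SKF, and the other had 8, 0 and 0. The *nd4* unigene had 2, 0 and 6 reads, and the *nd5* unigenes 9, 0 and 6 reads and 0, 0 and 8 reads. For *nd2*, *nd4* and *nd5* no close unigene was found.

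In the goldfish mitochondrial genome of RefSeq (assembly ASM336829v1), which lists 13 protein-coding genes, the order is *nd1*, *nd2*, *cox1*, *cox2*, *atp8*, *atp6*, *cox3*, *nd3*, *nd4l*, *nd4*, *nd5*, *nd6*, *cytb*. Close unigenes were named for the genes at places 1, 3, 4 and 13 of this order. By name 6 of the 13 had no unigene (*atp8*, *atp6*, *cox3*, *nd3*, *nd4l* and *nd6*). A search by protein description in place of gene name added 1 divergent unigene each for *atp6* and *nd5*, with 19 and 15 control reads. Each unigene carries 1 name. Whether a close unigene also spans neighbouring genes was not checked, and the levels given per gene could then include reads of those neighbours.

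Other features of the pools moved with the comparison, and their part in the member values was not tested. Radial glia markers (10 of 12 found, none at 0) summed to 7187 CPM in control and 4274 in both exposed pools, with 7 lower in SNa, 6 lower in SKF and 0 higher in either. *gfap* was at 1622, 1134 and 1092 CPM and *vim* at 3697, 2311 and 2318, whereas *nes* went the other way at 160, 228 and 195. The lowest log2 ratios of these markers were far below those of *gfap* and *vim*. They were those of *fabp7a*, at 303, 10 and 10.6 CPM (−4.93 and −4.84), and *fabp7b*, at 699, 151 and 165 CPM (−2.22 and −2.09). Markers of fibroblasts and mural cells (8 of 9 found) summed to 20510, 29927 and 30077 CPM, with 0 lower in either pool, 5 higher in SNa and 6 in SKF. Lens markers (6 of 6) summed to 329, 6.01 and 4.68 CPM, with 6 lower in each comparison. Endothelial ones (3 of 5) summed to 109, 37.7 and 37.9 CPM, nearly all from *cldn5a* (104, 30.6 and 30.4 CPM). Of them, 1 was lower and 1 higher in each comparison, with *cdh5* at log2 ratios of 0.75 and 0.21 and *fli1a* at 0.36 and 0.56. Neuronal markers (6 of 8) were at 21.6, 22.1 and 22.8 CPM with *elavl3* at 0 in SNa. Of them, 1 was lower and 0 higher in SNa, and 3 lower and 1 higher in SKF. Microglial ones (2 of 5) were at 24.8, 21.3 and 22.2 CPM, mostly *aif1l*, with 0 lower and 1, *ptprc*, higher in each comparison. Oligodendrocyte ones (3 of 6) were at 1.27, 0.988 and 1.78 CPM with *mbpa* at 0 in SNa. Of these, 1 was lower and 0 higher in SNa, and 1 lower and 1 higher in SKF. The lower one in SNa was *mbpa*, which passed the minimum only because of its 34 control reads and had to differ. Over all symbols 14.5% were lower and 12.4% higher in SNa, and 14.6% lower and 16.7% higher in SKF. Marker counts of 1 are single genes. Sequencing used 2 lanes for each of the 6 exposed libraries and for 3 of the controls, and 1 lane for the remaining control.

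Unigenes numbered near the members in the assembly had medians of their own. Among unigenes numbered within 1000 of the close *cytb* unigene the median log2 was −0.34 in SNa and −0.38 in SKF, around *cox1* 0.49 and −0.09, around *cox2* −0.19 and 0.52, and around *nd1* −0.18 and 0.53. Only unigenes with a mean normalized value of at least 10 were taken, 1504 in SNa and 1623 in SKF around *cytb*. There were 1781 and 1571 around *cox1*, 460 and 839 around *cox2*, and 1070 and 1556 around *nd1*. Unigenes that reached this minimum only through 1 pool had to differ, so the medians can reflect the minimum as well. These windows are wide, with quartiles of −0.14 and 1.18 around *cox1* in SNa, and the part of assembly number in the member ratios was not tested.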

How the data were processed

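Paired-end reads of poly(A) RNA from 10 cultures were, per the study's methods, trimmed, pooled, assembled de novo with Trinity, clustered with CD-HIT and matched to chordate proteins with BLAST. The authors' DESeq size factors scaled the reads per comparison. The sources used here name neither a DESeq version used by the authors nor the program that assigned reads to unigenes. Each deposited signal is the authors' normalized count, 1 value per group, unigene and comparison. The deposited percent identity is that of the authors' best protein hit. Deposited columns of fold changes, p-values and FDR hold the authors' own comparison and were not used. The labels name 4 control cultures and the methods 3, so the make-up of the control pool is unknown.

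Pooled reads were recovered as multiples of the worth of 1 read (100% whole within 0.01, and control reads equal in both tables for 100% of 164919 unigenes). How reads shared by near-identical copies, or by strands, were assigned is unknown. Symbols were summed over unigenes. Python 3.11.15, numpy 2.4.6, pandas 2.3.3 and scipy 1.17.1 were used, and the steps were tested on simulated data. Each rule symbol was named with up to 5 unigenes. Of each nuclear list the 3 most abundant symbols and, at a mean of at least 100, the extremes in each comparison were named. *sdha* was named after its value was seen. Also named outside this rule were *ndufs7*, *ndufs8a*, *ndufs8b*, *ndufv2*, *atp5c1*, *atp5d* and *tfam*. The 9 nuclear lists, the members and the markers were chosen with earlier results of these data known. Alternatives covered scaling, minimum values, thresholds, the choice of unigenes and a pseudocount of 1. Floors of 3 read pairs over a group (6 reads) were 0.0406 CPM in control, 0.0926 in SNa and 0.0692 in SKF.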

Additional observations from a re-analysis of the deposited data

How the results depend on the processing

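The summed log2 ratio of the members, −0.65 in both comparisons, stayed below 0 under each alternative run. In SNa it was −0.64 with CPM, −0.66 with the reads outside the members as the total, −0.66 with a median of ratios over unigenes of at least 100 reads, −0.25 when scaled on the summed nuclear genes of oxidative phosphorylation and −0.54 with an identity of at least 90%, which leaves the close *cox1* unigene. In SKF it was −0.65, −0.67, −0.69, −0.20 and −0.53 in the same order. Scaling on the nuclear genes shifts every log2 ratio up by 0.396 in SNa and 0.454 in SKF, and under it *cox1* came to −0.14 and −0.07, *nd1* to −0.16 and −0.12, *cytb* to −0.26 and −0.22 and *cox2* to −0.50 and −0.47. The number of member unigenes past the fold, 6 in SNa and 7 in SKF, was 2 in SNa and 3 in SKF at a log2 size above 1, and 12 in SKF with a minimum of 1 and with none. Under scaling on the nuclear genes, an alternative chosen after seeing the data, it was 3 in each, and *cytb*, *cox1* and *nd1* lost the call in both comparisons, as did *cox2* in SKF. The counts of nuclear symbols stayed within 1.5 times under their alternatives. Of 106 alternative values, 64 moved by less than their counting interval or count limit and 42 by more, with 0 reversed.

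No paired analysis was possible because the tables hold 1 pooled value per group, and leaving out each culture in turn was not run for the same reason. Spread between cultures is therefore unknown, intervals cover counting error alone, and most divergent unigenes rest on a few reads.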
